A study of Mus musculus with 12 samples.

Results

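The 8 immunoglobulin heavy chain constant genes Ighm, Ighd, Ighg3, Ighg1, Ighg2b, Ighg2c, Ighe and Igha were taken by symbol from the 56941 genes of the count table, and all 8 passed the filter on low counts. They were followed in 12 RNA-seq libraries of B cells sorted from the mouse peritoneal cavity (PerC), 3 from each of 4 groups, B2 and MemB of control mice and B2 and MemB of KI mice. KI mice carried Cd21-Cre and R26 LSL-Gpr34Q340X-IRES-GFP, so that a truncated GPR34 and GFP are expressed from the Rosa26 locus once Cre has acted. Cd21-Cre is active in B cells and in follicular dendritic cells, and the sources used here do not give the alleles of the control mice. Mice of the study were 8 to 20 weeks old. B2 cells were sorted as IgD+IgM+ and MemB, the memory B cells, as IgD-IgM-. The sort thus used the proteins of Ighm and Ighd, and a difference in these genes between MemB and B2 is not a finding. The libraries are labelled as biological replicates, but nothing says how many mice went into each one or whether B2 and MemB came from the same mice. P-values therefore measure the spread between these libraries.

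Each B cell joins its rearranged variable region to a constant region that decides the class of antibody. Naive B2 cells splice the same variable exon to Ighm (IgM) or Ighd (IgD). In class switch recombination, breaks are made in front of a downstream constant gene and the DNA between is lost, so that the cell makes IgG (Ighg3, Ighg1, Ighg2b, Ighg2c), IgE (Ighe) or IgA (Igha). IgA is the class of mucosal secretions and is joined into dimers by the J chain. Germline transcripts of an unswitched constant gene, and the membrane and secreted forms of one class, fall into the same gene count and could not be separated here.

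The 8 genes lie on chromosome 12 of GRCm39, on the minus strand, in the order Ighm, Ighd, Ighg3, Ighg1, Ighg2b, Ighg2c, Ighe and Igha. In the GENCODE annotation all are IG_C genes, each with 2 isoforms. Ighm (ENSMUSG00000076617.10) runs from 113382178 to 113386350 and Igha (ENSMUSG00000095079.7) from 113218450 to 113223856, and the start of Igha lies 162.5 kb downstream of the start of Ighm. Ighd runs from 113370224 to 113379944, Ighg3 from 113319844 to 113324852, Ighg1 from 113288860 to 113294143, Ighg2b from 113266585 to 113271553, Ighg2c from 113248945 to 113252552 and Ighe from 113232880 to 113236868. The coding strand of the first 90 bases of the CH1 exon, the first exon of the constant region, is shown for the classes that changed most between KI and control MemB, IgM and IgA (chr12:113386261-113386350 and chr12:113223767-113223856, 5′ to 3′).
Ighm: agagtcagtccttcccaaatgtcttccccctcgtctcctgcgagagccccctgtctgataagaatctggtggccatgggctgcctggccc
Igha: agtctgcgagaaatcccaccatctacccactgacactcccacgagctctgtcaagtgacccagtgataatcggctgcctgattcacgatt

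The 4 IgG genes resemble each other in sequence, and how well they can be told apart bears on every IgG value below. The first 90 bases of their CH1 exons (chr12:113324763-113324852 for Ighg3, chr12:113294054-113294143 for Ighg1, chr12:113271464-113271553 for Ighg2b and chr12:113252463-113252552 for Ighg2c, minus strand) are printed with the positions at which the 4 genes differ in capitals.
Ighg3: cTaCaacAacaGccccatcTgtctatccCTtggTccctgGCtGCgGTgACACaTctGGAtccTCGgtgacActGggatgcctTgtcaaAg
Ighg1: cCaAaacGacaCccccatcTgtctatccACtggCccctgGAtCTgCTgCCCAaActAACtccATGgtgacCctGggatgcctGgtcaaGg
Ighg2b: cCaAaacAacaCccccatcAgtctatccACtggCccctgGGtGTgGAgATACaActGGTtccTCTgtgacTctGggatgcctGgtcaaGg
Ighg2c: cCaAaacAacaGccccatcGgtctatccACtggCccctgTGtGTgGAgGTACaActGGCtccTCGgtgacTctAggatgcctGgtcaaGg
They differ at 29 of these 90 positions, and at 88 of the 291 positions of the whole exon. The hinge exon, which links the antigen-binding arms to the stem of the antibody, has a different length in each gene. It has 48 bases in Ighg3, 39 in Ighg1, 66 in Ighg2b and 63 in Ighg2c, and is shown with the in-frame cysteine codons in capitals (chr12:113324149-113324196, chr12:113293464-113293502, chr12:113270881-113270946 and chr12:113251883-113251945, in the same order).
Ighg3: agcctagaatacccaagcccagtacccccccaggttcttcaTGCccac
Ighg1: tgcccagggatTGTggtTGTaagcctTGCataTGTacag
Ighg2b: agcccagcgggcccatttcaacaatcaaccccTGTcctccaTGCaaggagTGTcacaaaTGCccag
Ighg2c: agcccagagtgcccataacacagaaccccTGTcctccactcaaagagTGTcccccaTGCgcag
These cysteine codons, of which Ighg3 has 1, Ighg1 has 4, Ighg2b has 4 and Ighg2c has 3, encode residues that can link the heavy chains. Over the coding sequence of the secreted form, Ighg2b and Ighg2c were 85.6% identical, and the other 5 pairs of IgG genes were 73.9 to 75.5% identical. The longest run shared by Ighg2b and Ighg2c had 78 bases and lay in exon 3 of both (chr12:113270489-113270566 and chr12:113251489-113251566).
Shared run of Ighg2b and Ighg2c: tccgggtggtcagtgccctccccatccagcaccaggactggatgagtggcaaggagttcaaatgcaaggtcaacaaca
Of all stretches of 50 bases, the length of one read of a pair, 4.15% in Ighg2b, 5.49% in Ighg2c, 1.58% in Ighg3 and 0.393% in Ighg1 also occurred in another IgG gene. The corresponding share was 0 in Ighm, Ighd, Ighe and Igha, and 0 stretches of the 8 genes occurred in an annotated transcript of any other gene. RSEM divides a read that matches 2 genes between them. The deposited counts of Ighm, Ighd, Ighe and Igha were whole numbers in all 12 libraries, those of Ighg1 in 6, those of Ighg3 in 1, and those of Ighg2b and Ighg2c in 0. The IgG subclass values therefore rest in small part on that division.

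Totals ranged from 29895068 to 39732124 counts a library, of which ribosomal RNA genes took 29.3 to 38.3% and the 8 genes together 0.439 to 0.667%. Levels are given as CPM, a gene's counts scaled to the same library total, after TMM normalisation. Gpr34, the gene of the transgene, was at 102, 113 and 100.3 CPM in KI B2 against 4.47, 3.42 and 6.87 in control B2, and at 132, 168 and 155 in KI MemB against 18.8, 19.4 and 30.8 in control MemB, so every library was on its labelled side. Xist reached at least 2420 CPM in replicate 3 of each group and at most 66.6 CPM in the other 8 libraries, so the replicates of each group were of both sexes. Markers of B cells (7 genes) summed to 3227 to 3727 CPM in all 12 libraries.

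The constant genes were ordered differently in B2 and MemB when levels were divided by coding length. In control B2, Ighm had 2841 ± 92.3 and Ighd 1629 ± 182 CPM per kb of coding sequence (SD, n = 3), and no other member passed 53.9 in any library. Behind them came Igha at 43.7 ± 9.03, Ighg2b at 29.4 ± 16.2, Ighg3 at 11.3 ± 8.80, Ighg1 at 9.14 ± 11 and Ighg2c at 1.98 ± 0.267 CPM per kb (SD, n = 3), and from Igha to Ighg2c each neighbour overlapped the next. KI B2 had the same order, with Ighm at 2126 ± 254 and Ighd at 1498 ± 161 CPM per kb (SD, n = 3), and there Ighg2b did not overlap Ighg3. In control MemB, Ighm remained first at 1643 ± 250 CPM per kb, followed by Ighg2b at 837 ± 30.4, Igha at 561 ± 299, Ighg3 at 283 ± 15.9, Ighd at 244 ± 22.8, Ighg1 at 192 ± 117 and Ighg2c at 149 ± 55.2 (SD, n = 3). Only Ighm, at the top, and Ighe, at the bottom, stood clear of their neighbours in that group. In KI MemB the first place was taken by Igha at 3097 ± 1040.0 CPM per kb, followed by Ighg2b at 1059 ± 364 and Ighm at 298 ± 91.5 (SD, n = 3). Igha did not overlap Ighg2b, and Ighg2b did not overlap Ighm. Ighm, Ighg3, Ighd, Ighg1 and Ighg2c, in that order, each overlapped the next. Ighe was last in all 4 groups. The place of Ighg2c depends on its length, because the annotated exons of this gene end early: it has 1326 bases of exon against 2512 to 2678 in the other 3 IgG genes, and per kb of exon it had rank 4 in both MemB groups.

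**Figure D1:**
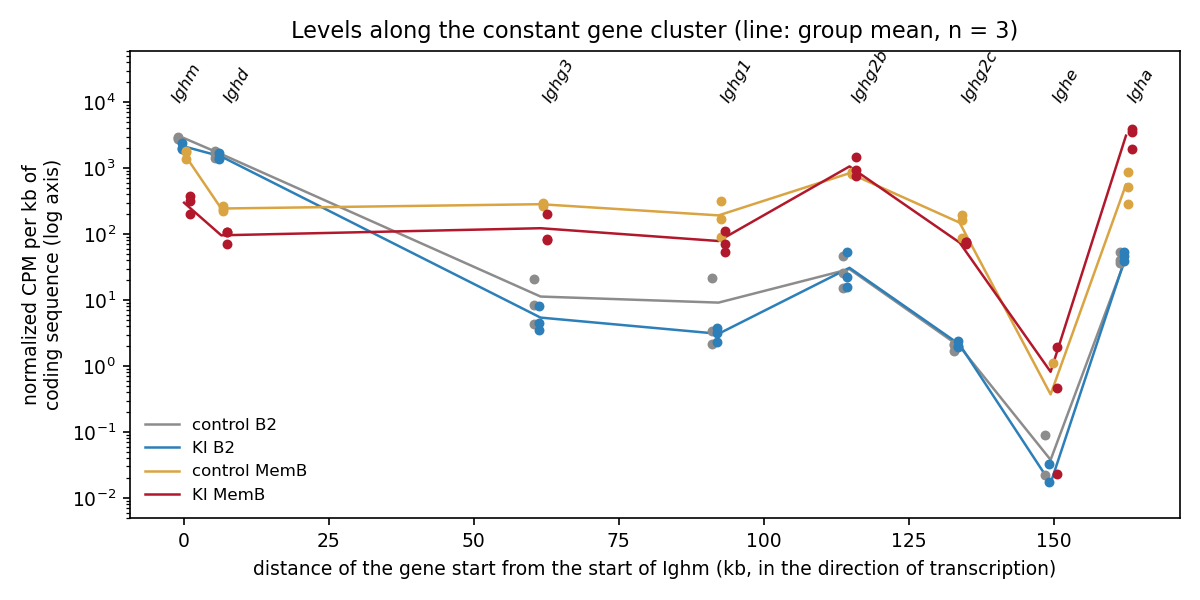
Level of each constant gene (normalised CPM per kb of coding sequence, log axis) against the distance of its start from the start of Ighm in kb. Points are libraries, set side by side by group, lines join the group means, and libraries at 0 for Ighe are not drawn. KI MemB is lowest of the 4 groups at the Ighm end and highest at Igha, whose mean there is 3097.

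KI and control MemB differed most in IgM and IgA. Of the 8 members, 3 were called (adjusted p below 0.05 in edgeR's quasi-likelihood test and a log2 fold change beyond 1), against 43 of the 15148 genes tested (0.284%). Ighm and Ighd fell and Igha rose.

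Ighm was at 2688, 2621 and 2014 CPM in control MemB and at 297, 466 and 566 CPM in KI MemB. Each KI MemB library was below every control MemB library, with a log2 fold change of -2.46 (SE 0.17, 95% interval -2.81 to -2.11, edgeR adjusted p = 4.81e-11). Ighd, the other gene of unswitched cells, was at 209, 251 and 225 CPM in control MemB and at 66.4, 101 and 101 CPM in KI MemB, again without overlap. Its log2 fold change was -1.35 (SE 0.18, 95% interval -1.72 to -0.98, edgeR adjusted p = 9.39e-05). The call of Ighd was lost with limma-voom (adjusted p = 0.0837) and in an edgeR fit of the 6 MemB libraries alone (adjusted p = 0.0831), and that of Ighm held in every alternative. In these bulk samples, fewer cells of a class and less RNA per cell cannot be told apart.

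Igha was at 352, 632 and 1078 CPM in control MemB and at 4294, 2350.3 and 4738 CPM in KI MemB. The lowest KI MemB library, replicate 2, was above the highest control library, replicate 3. On the log2 scale KI MemB was higher by 2.47 (SE 0.39, 95% interval 1.61 to 3.32, edgeR adjusted p = 0.0294). The values rested on 12372 to 35954 counts in control and 76714 to 145472 counts in KI MemB. The call was lost without control MemB replicate 2 (log2 fold change 2.41, edgeR adjusted p = 0.201), without KI MemB replicate 1 (2.37, adjusted p = 0.135), with a minimum count of 1 (2.47, adjusted p = 0.0576) and with limma-voom (2.53, adjusted p = 0.247).

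**Figure D2:**
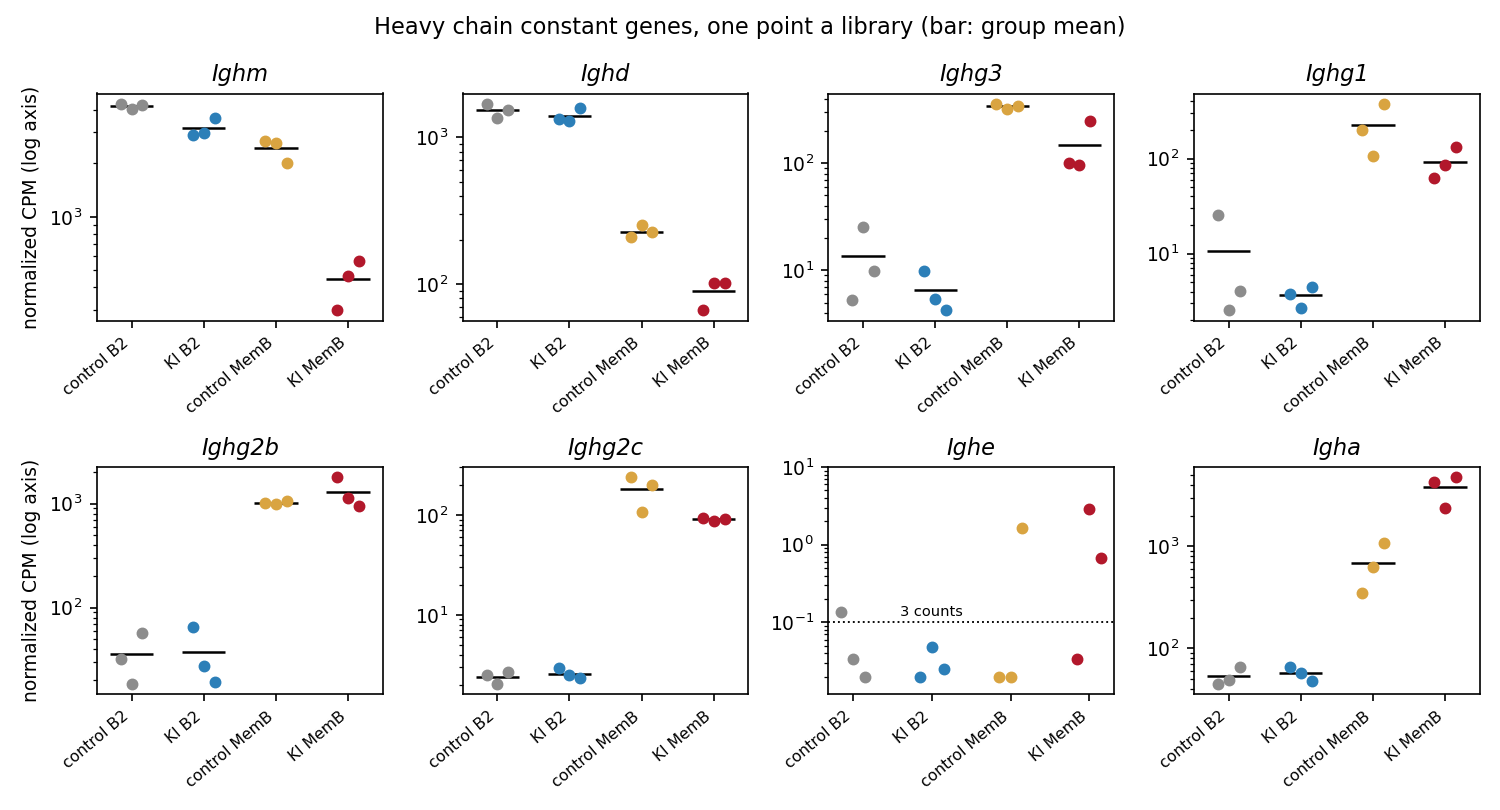
Normalised CPM (log axis) of the 8 constant genes in the 12 libraries, 1 point a library, with a bar at the group mean. For Ighe no mean is drawn, libraries at 0 counts are set at 0.02, and the dotted line marks 3 counts in the library where they weigh most, 0.102 CPM. KI MemB lies below control MemB for Ighm, Ighd, Ighg3 and Ighg2c and above it for Igha, without overlap.

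None of the 4 IgG genes was called, and the fitted changes were below 0 for Ighg3, Ighg1 and Ighg2c and above 0 for Ighg2b. Ighg3, the class made early and largely without T cell help, was at 358, 320 and 343 CPM in control MemB and at 99.6, 96.8 and 246 CPM in KI MemB. The groups did not overlap, and replicate 3 was the highest of the KI libraries. Ighg3 had a log2 fold change of -1.21 (SE 0.45, 95% interval -2.14 to -0.28, edgeR adjusted p = 0.346). Ighg3 was called with limma-voom (log2 fold change -1.35, adjusted p = 0.0191) and in edgeR with no filter on low counts (-1.21, adjusted p = 0.048). Ighg2c, the IgG2a-type gene of C57BL/6 mice, was at 238, 107 and 198 CPM in control MemB and at 93.7, 86.5 and 90.8 CPM in KI MemB. These groups did not overlap either, and the KI libraries spread less (SD 3.65 CPM) than the control libraries (SD 67.2 CPM). For Ighg2c this gave a log2 fold change of -1.0 (SE 0.37, 95% interval -1.76 to -0.25, edgeR adjusted p = 0.330).

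Ighg1, the class typical of T cell-dependent responses with IL-4, was at 198, 106 and 377 CPM in control MemB and at 62.4, 84.8 and 131 CPM in KI MemB, and the groups overlapped. Its log2 fold change was -1.29 (SE 0.72, 95% interval -2.84 to 0.26, edgeR adjusted p = 0.548), and -0.71 without control MemB replicate 3. Ighg2b, a class that TGF-beta can induce as it does IgA, was at 1016, 985 and 1058 CPM in control MemB and at 1790, 1142 and 939 CPM in KI MemB. The log2 fold change was 0.34 (SE 0.51, 95% interval -0.80 to 1.48, edgeR adjusted p = 0.889), and 0.037 without KI MemB replicate 1. The 3 control libraries were close together and KI MemB lay on both sides of them. Over the 8 members, 5 had groups that did not overlap (Ighm, Ighd, Ighg3, Ighg2c and Igha), against 12.1% of the genes tested.

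Ighe was near the limit of detection and uneven between libraries. It had 0, 0 and 55 counts in control MemB, 1, 95 and 21 in KI MemB, 4, 1 and 0 in control B2, and 0, 2 and 1 in KI B2. As a share of the counts of the 8 genes, the library with most, KI MemB replicate 2, had 0.0672% (95% Wilson interval 0.0550 to 0.0821%), KI MemB replicate 3 had 0.0100% (0.00657 to 0.0154%) and control MemB replicate 3 had 0.0311% (0.0239 to 0.0405%). In control MemB replicates 1 and 2 the share was 0 of 178013 and 0 of 171218 counts, which allows up to 0.00169% and 0.00175% (3 counts of the total). The intervals and limits cover counting error only, since amplified reads are not independent molecules. The fitted log2 fold change of KI against control MemB was 1.13 with a 95% interval from -3.19 to 5.46 (edgeR adjusted p = 0.914), and it changed sign to -0.60 without KI MemB replicate 2. No difference in Ighe between KI and control was detectable between these libraries, and an increase or a decrease of several log2 units lies within the interval.

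In B2, none of the 8 members was called between KI and control, against 1 of 15148 genes (0.0066%). Before adjustment, edgeR's p was below 0.05 for 870 genes, and DESeq2 called 42 genes, none of them a member. Ighm was at 4341, 4072 and 4252 CPM in control B2 and at 2906, 2978 and 3593 CPM in KI B2, without overlap. Its log2 fold change was -0.42 (SE 0.16, 95% interval -0.75 to -0.08, edgeR adjusted p = 0.838). Ighd was at 1694, 1353 and 1531 CPM in control B2 and at 1337, 1297 and 1577 CPM in KI B2, which overlapped. The log2 fold change of Ighd was -0.12 (95% interval -0.48 to 0.24, edgeR adjusted p = 0.9995).

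Igha in B2 had 45.03, 49.4 and 66.01 CPM in control and 65.7, 57.1 and 48.2 in KI libraries, which gave 0.09 on the log2 scale (95% interval -0.73 to 0.91). Ighg2b had 31.9, 18.5 and 57.3 CPM in control and 65.7, 27.5 and 19.4 in KI, with a log2 fold change of 0.06 (95% interval -1.08 to 1.21). For Ighg2c, which had 2.05 to 2.67 CPM in control and 2.35 to 2.91 in KI B2, it was 0.09 (95% interval -0.68 to 0.87). All 3 values changed sign in at least 1 of the fits that left out a library.

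In B2, Ighg1 and Ighg3 were each highest in 1 control library. Ighg1 had 769 counts (25.8 CPM) in control B2 replicate 1 and 2.55 to 4.44 CPM in the other 5 B2 libraries. Its log2 fold change between KI and control B2 was -1.57 (95% interval -3.15 to 0.01, edgeR adjusted p = 0.849), and 0.16 without that library. Ighg3 had 759 counts (25.5 CPM) in control B2 replicate 2 and 4.24 to 9.93 CPM in the other 5. Its log2 fold change was -1.06 (95% interval -2.0 to -0.12, edgeR adjusted p = 0.838), and -0.23 without that library. Control B2 replicate 1 also had the highest Jchain of the B2 libraries, at 11.3 CPM against 1.62 to 3.55 CPM. Of the 8 members in B2, 1 (Ighm) had groups that did not overlap, against 10.2% of the genes tested.

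**Figure D3:**
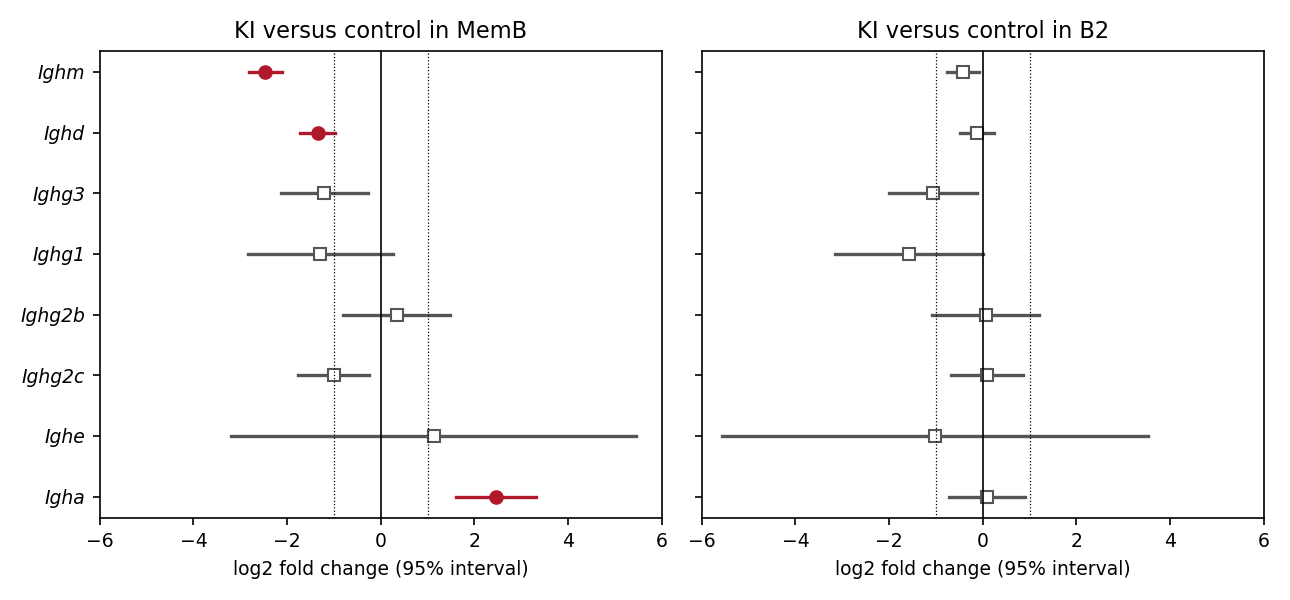
Log2 fold change of KI against control in MemB (left) and B2 (right), with 95% intervals from edgeR's fit of all 12 libraries. Filled red circles are called, open squares are not, and dotted lines stand at -1 and 1. In MemB, Ighm (-2.46), Ighd (-1.35) and Igha (2.47) are called, and in B2 no member is.

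The difference between the KI effects in MemB and B2 was itself tested. It was called for 2 of the 8 members, Ighm and Ighd, against 10 of 15148 genes (0.066%). The sort selected B2 for the proteins of these 2 genes and MemB against them. For them the test therefore cannot separate KI from the gate, and nothing is read from the count. For Ighm the log2 fold change was lower in MemB than in B2 by -2.04 (SE 0.24, 95% interval -2.52 to -1.56, edgeR adjusted p = 1.08e-05), and it was called with every left-out library but not with limma-voom (-2.08, adjusted p = 0.0984). For Ighd it was lower by -1.23 (SE 0.25, 95% interval -1.74 to -0.71, edgeR adjusted p = 0.0463). The call of Ighd was lost in 9 of the 12 fits that left out a library, each of the 6 B2 libraries, control MemB replicates 2 and 3, and KI MemB replicate 1 among those left out, with an adjusted p of up to 0.234. It was also lost with the replicate block (adjusted p = 0.0598), upper-quartile normalisation (adjusted p = 0.0524), a non-robust fit (adjusted p = 0.178) and limma-voom (adjusted p = 0.451). For Igha the difference was 2.37 (SE 0.53, 95% interval 1.2 to 3.54) and was not called (edgeR adjusted p = 0.293). It was called with DESeq2 (2.38, adjusted p = 0.00179), with no filter (2.36, adjusted p = 2.52e-07), and without control MemB replicate 1 (2.05, adjusted p = 0.0128), control MemB replicate 3 (2.86, adjusted p = 0.00181) or KI MemB replicate 2 (2.63, adjusted p = 0.0452). Both KI effects enter this difference. For Ighg2c it was -1.10 (95% interval -2.17 to -0.02, edgeR adjusted p = 0.579), and for Ighg3, Ighg1, Ighg2b and Ighe the 95% intervals included 0.

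The 6 switched genes were higher in MemB than in B2, with the exception of Ighe, which was not called. In control mice 6 of the 8 members were called, against 40 of 15148 genes (0.264%), and in KI mice 7 were called, against 55 of 15148 (0.363%). Since the gate itself set IgD-IgM- against IgD+IgM+ cells, these counts describe the sorted populations, and nothing is read from them against the background. Ighg2c had the largest log2 fold change of MemB against B2 among the members in control mice, 6.23 (SE 0.46, edgeR adjusted p = 9.45e-11), from 2.05 to 2.67 CPM in B2 to 107 to 238 CPM in MemB. In KI mice it was 5.13 (SE 0.44, edgeR adjusted p = 2.68e-09). For Igha the log2 fold change was 3.68 in control mice (SE 0.41, edgeR adjusted p = 0.00324) and 6.06 in KI mice (SE 0.46, edgeR adjusted p = 7.78e-05). The control value missed the threshold without control B2 replicate 1 (3.58, adjusted p = 0.0549), without control B2 replicate 2 (3.63, adjusted p = 0.0573) and with limma-voom (3.53, adjusted p = 0.69), and limma-voom also missed it in KI mice (5.99, adjusted p = 0.26).

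Ighg3 was higher in MemB by 4.65 in control mice (SE 0.52, edgeR adjusted p = 2.35e-05) and by 4.5 in KI mice (SE 0.51, adjusted p = 1.91e-05) on the log2 scale. Ighg2b was higher by 4.83 in control (SE 0.59, edgeR adjusted p = 0.0131) and by 5.10 in KI mice (SE 0.60, adjusted p = 0.00745). Its call was lost without control B2 replicate 1 (4.76, adjusted p = 0.113), control MemB replicate 1 (4.83, adjusted p = 0.0526) or control MemB replicate 3 (4.80, adjusted p = 0.0643), and in KI mice without KI B2 replicate 2 (4.93, adjusted p = 0.0891). Ighg1 was higher by 4.39 in control (SE 0.81, edgeR adjusted p = 0.0429) and by 4.67 in KI mice (SE 0.83, adjusted p = 0.0251). In control mice the call was lost without control B2 replicate 3 (4.00, adjusted p = 0.174) or control MemB replicate 1 (4.48, adjusted p = 0.0903), with upper-quartile normalisation (adjusted p = 0.0676), with a minimum count of 1 (adjusted p = 0.0886) and in the fit of the 6 control libraries alone (adjusted p = 0.272). In KI mice it was lost with any of the 6 libraries left out (adjusted p from 0.0766 to 0.313) and with a minimum count of 1 (adjusted p = 0.0675).

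Of the genes whose proteins the sort used, Ighd was lower in MemB by -2.74 in control and -3.97 in KI mice, and Ighm by -0.79 in control and -2.83 in KI mice, on the log2 scale. The value of Ighm in control mice was below the fold threshold (edgeR adjusted p = 0.0199). Control MemB, sorted as IgM-, thus held Ighm at 2441 ± 371 CPM (SD, n = 3) against 4222 ± 137 in control B2, and Ighd at 228 ± 21.4 against 1526 ± 171. The ratio of Ighm to Ighd counts was 2.56 to 3.01 in control B2, 2.17 to 2.30 in KI B2, 8.96 to 12.9 in control MemB and 4.48 to 5.58 in KI MemB. It was thus highest in control MemB, and no library of the 4 groups lay within the range of another group. These ratios were chosen after their values were seen.

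Shares of the summed counts of the 8 genes show the make-up of each library without reference to any other gene. In control MemB, Ighm took 53.1, 52.2 and 38.0%, and in KI MemB 4.44, 10.8 and 8.31%. The means were 47.8 ± 8.46% and 7.84 ± 3.19% (SD, n = 3), without overlap. Igha took 6.95, 12.6 and 20.4% in control MemB and 64.1, 54.3 and 69.5% in KI MemB, with means of 13.3 ± 6.73% and 62.6 ± 7.74% (SD, n = 3). In the exact permutation test, two-sided and adjusted over the 8 genes, the 6 members without overlap (Ighm, Ighd, Ighg3, Ighg1, Ighg2c and Igha) had p = 0.1 and adjusted p = 0.133, and 0.1 is the smallest p that 3 libraries against 3 can give. Within MemB, the counting error of a share was at most 0.26 percentage points on either side (95% Wilson interval). The smallest SD between replicates in MemB was 0.252 percentage points, for Ighg2b in control mice, apart from that of Ighe.

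**Figure D4:**
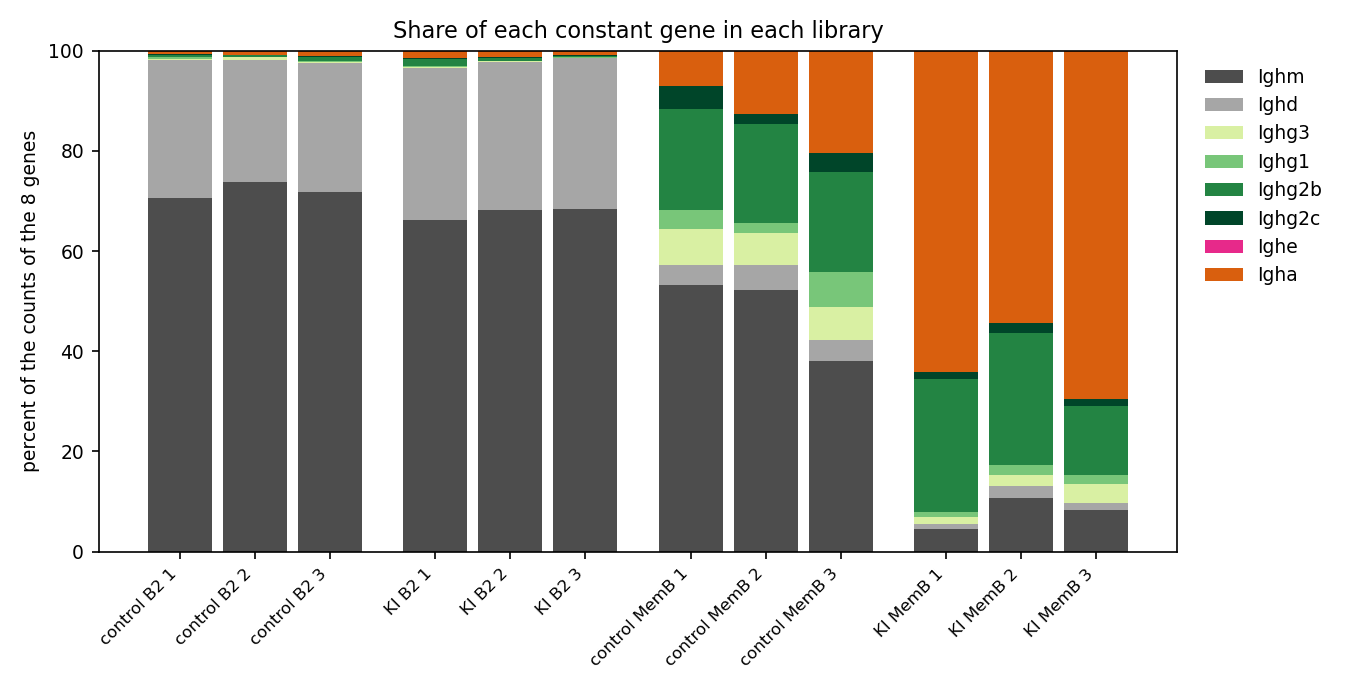
Percent of the summed counts of the 8 constant genes taken by each gene, 1 bar a library. Grey is Ighm and Ighd, green the IgG genes, orange Igha, and Ighe is too small to be seen. Igha takes 54.3 to 69.5% in KI MemB and 6.95 to 20.4% in control MemB, while B2 libraries are almost all Ighm and Ighd.

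The IgG genes together took 35.8, 30.2 and 37.3% of the 8 genes in control MemB and 30.5, 32.6 and 20.7% in KI MemB, and the groups overlapped. Ighg2b was 20.1, 19.6 and 19.99% in control and 26.7, 26.4 and 13.8% in KI MemB (exact permutation p = 0.4, adjusted p = 0.457). The other 3 IgG genes had lower shares in each KI MemB library than in any control library. Ighg3 went from 6.64 ± 0.381% to 2.44 ± 1.07%, Ighg1 from 4.38 ± 2.54% to 1.6 ± 0.584% and Ighg2c from 3.53 ± 1.3% to 1.58 ± 0.366% (SD, n = 3). Among the IgG counts alone, Ighg2b was 53.6 to 64.9% in control MemB and 66.8 to 87.5% in KI MemB, a range chosen for display after the values were seen.

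In B2 the make-up was close in both genotypes. Ighm took 70.6, 73.7 and 71.8% in control B2 and 66.2, 68.1 and 68.5% in KI B2. Ighd took 27.6, 24.5 and 25.9% in control B2 and 30.5, 29.7 and 30.04% in KI B2. Neither gene overlapped between the groups, with a difference of -4.46 percentage points for Ighm and 4.09 for Ighd (exact permutation p = 0.1 and adjusted p = 0.4 for each). The IgG genes together made 0.879 to 1.25% in control B2 and 0.580 to 1.87% in KI B2, and Igha 0.733 to 1.12% and 0.919 to 1.5%. Both ranges overlapped.

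Leaving out Ighm and Ighd, whose proteins the sort used, the 6 switched genes could be set against each other. Igha took 16.3, 29.4 and 35.3% of their counts in control MemB and 67.7, 62.5 and 77.1% in KI MemB, with means of 27.0 ± 9.73% and 69.1 ± 7.42% (SD, n = 3). Ighg2b took 47.0, 45.8 and 34.6% in control MemB and 28.2, 30.3 and 15.3% in KI MemB. Ighg3 took 14.2 ± 2.73% in control and 2.71 ± 1.22% in KI MemB, Ighg1 8.81 ± 3.73% and 1.79 ± 0.701%, and Ighg2c 7.49 ± 3.14% and 1.75 ± 0.473% (SD, n = 3). Each of these 5 genes had groups that did not overlap, with an exact permutation p = 0.1 and an adjusted p = 0.12 over the 6 genes. Since shares sum to a fixed total, the lower shares of the 4 IgG genes are not independent of the higher share of Igha, and the level of Ighg2b in CPM was above every control library in 2 of the 3 KI MemB libraries. In MemB, Ighe took at most 0.0773% (replicate 2 of KI). Divided by exon length, by coding length, or pooled over a group, the difference in Igha share of the switched genes was 42.8, 42.2 and 42.2 percentage points against 42.1. Some other shares moved more: divided by exon length, the difference was -10.3 percentage points in place of -5.74 for Ighg2c among the switched genes, and -2.625 in place of -6.54 for the IgG sum among the 8 genes.

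**Figure D5:**
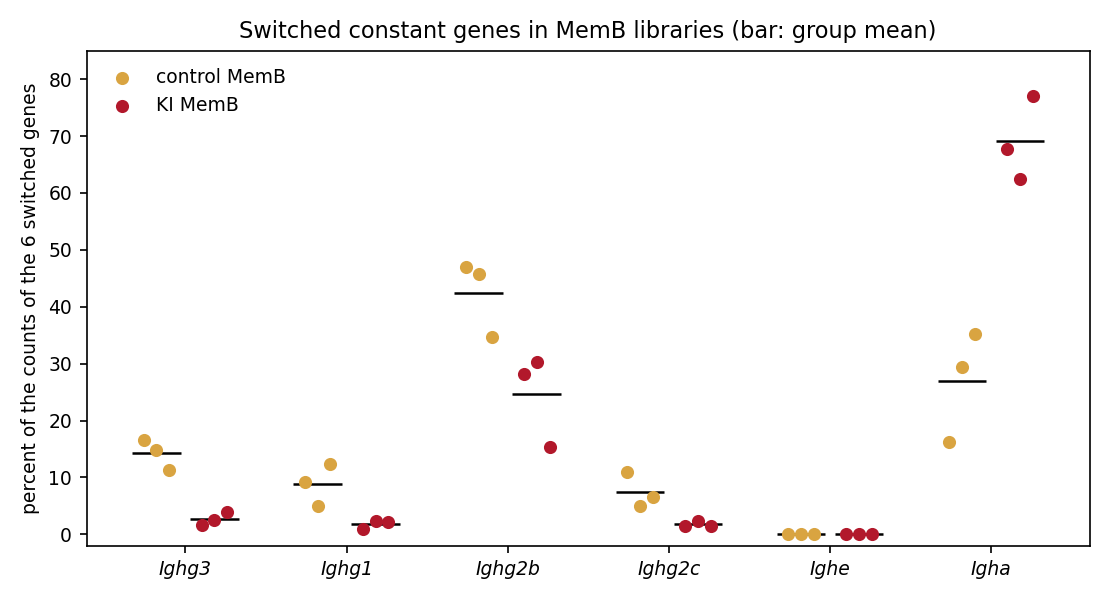
Percent of the summed counts of the 6 switched constant genes taken by each gene in MemB, 1 point a library, with a bar at the group mean. Control and KI MemB do not overlap for any gene but Ighe, and the Igha mean is 27.0% in control and 69.1% in KI MemB.

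Beside the constant genes stand those that make, pair with and secrete antibody. Of 38 listed genes of class switch recombination, 36 were in the table and tested, and 0 were called by edgeR in any of the 5 comparisons. Unadjusted p was below 0.05 for 1 to 4 of them a comparison, against 870 to 1676 of the 15148 genes tested. Between KI and control MemB, DESeq2 called H2ax, the histone that marks DNA breaks, among 479 genes in all. Between MemB and B2 in KI mice it called 2 of the 36 genes, among 396 in all, and in the other comparisons 0. The median log2 fold change of the 36 genes between KI and control MemB was 0.13, with 20 higher and 16 lower, against -0.03 over all genes tested.

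Of 20 listed antibody secretion genes, edgeR called 1 between KI and control MemB (0.284% of all genes were called) and 0 in B2 (0.0066%), where 0 had an unadjusted p below 0.05 and DESeq2 also called 0. This was Jchain, the J chain of dimeric IgA and pentameric IgM, at 6.71, 5.57 and 17.99 CPM in control MemB and 152, 72.1 and 196 CPM in KI MemB, higher on the log2 scale by 3.80 (SE 0.68, edgeR adjusted p = 0.00495). The median of the 20 genes was 0.30 against -0.03 over all genes, with 13 higher and 7 lower. Unadjusted p was below 0.05 for 4 of the 20 genes between KI and control MemB, against 1676 of all genes. For the difference between the KI effects there were 3 (1286 of all genes). Between MemB and B2 there were 2 in control and 8 in KI mice (1607 and 1601), and DESeq2 called 1 and 4. Jchain was called between MemB and B2 in KI mice (edgeR adjusted p = 3.48e-05). For the difference between the KI effects it was called by edgeR (adjusted p = 0.0463) and not by limma-voom. Jchain followed the order of Igha among the KI MemB libraries, lowest in replicate 2 and highest in replicate 3. In control MemB both were highest in replicate 3, but Igha was lowest in replicate 1 and Jchain in replicate 2. Of the 6 receptor partners 0 were called in any comparison by edgeR, DESeq2 or limma-voom, and 0 to 2 had an unadjusted p below 0.05 in edgeR. Igkc, the kappa light chain constant gene, had a log2 fold change of 0.40 in MemB (SE 0.16, edgeR adjusted p = 0.354), and Cd79a and Cd79b, the signalling chains of the B cell receptor, 0.16 and -0.11. Of the lambda light chain constant genes, Iglc1 had 0.16, Iglc2 -0.64 (SE 0.21, edgeR adjusted p = 0.281) and Iglc3 -0.30 (SE 0.21, edgeR adjusted p = 0.622). Iglc2 was at 463, 548 and 475 CPM in control MemB and at 356, 269.8 and 329 CPM in KI MemB. Iglc3 was at 556, 498 and 565 CPM and at 419.5, 404 and 488 CPM. Both were without overlap, against 12.1% of the genes tested. The summed counts of the 8 heavy chain genes were 1.54 to 1.6 times those of Igkc, Iglc1, Iglc2 and Iglc3 in control MemB, 1.59 to 1.71 times in KI MemB, 1.75 to 1.97 times in control B2 and 1.69 to 1.80 times in KI B2, a ratio also chosen after the values were seen.

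Among the marker sums given here, those of T and NK cells and of B-1 cells separated control from KI MemB, and those of plasma cells, mast cells and macrophages overlapped. The summed level of 8 plasma cell markers, Jchain among them, was 146 to 284 CPM in control MemB and 233 to 379 CPM in KI MemB, and without Jchain it was 139 to 279 and 160 to 227 CPM. Sdc1, which encodes the plasma cell protein CD138, was at 14.4 CPM in KI MemB replicate 1 and at 0 to 0.0899 CPM in the other 5 MemB libraries. Tnfrsf17, the gene of the plasma cell receptor BCMA, was at 0.881, 0.0880 and 0.0899 CPM in control MemB and at 10.3, 5.06 and 0.0326 CPM in KI MemB. It was higher than in any control library in KI replicates 1 and 2. In KI replicate 3 it rested on 1 count and in the lowest control library on 3 counts, too few to order them. The summed level of 7 T and NK cell markers was 69.5 to 119 CPM in control MemB and 1.81 to 44.4 CPM in KI MemB, and that of 6 mast cell markers was 1.41 to 216 CPM and 0.782 to 1.64 CPM. The 6 B-1 cell markers summed to 665 to 713 CPM in control MemB and 468 to 531 CPM in KI MemB. Among markers of follicular B cells, the IgE receptor gene Fcer2a was at 66.9, 26.9 and 69.8 CPM in control MemB and at 76.7, 151 and 135 CPM in KI MemB. Cr2, which encodes CD21, was at 44.5, 50.4 and 38.1 CPM in control and at 56.2, 97.5 and 89.4 CPM in KI MemB, and the chemokine receptor gene Ccr7 at 99.2, 111 and 121 CPM in control and at 84.6, 87.1 and 54.8 CPM in KI MemB. Fcer2a and Cr2 were thus higher and Ccr7 lower in each KI library than in any control library, and Ighd, also such a marker, was lower. Over all genes tested, 12.1% had KI and control MemB libraries that did not overlap. The sum over the follicular list is not reported here, and the members given do not stand for it. Of the 7 macrophage markers, which summed to 1.05 to 23.8 CPM in control and 0.521 to 2.97 CPM in KI MemB, 4 and 3 had at most 3 counts in every library of the group. The part of these cells in the values of Ighm, Ighd and Igha was not tested.

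Over the 12 libraries the member levels fell into opposed sets, as a description that rests largely on the difference between B2 and MemB. Pearson's r of log2 CPM was 0.88 between Ighm and Ighd, 0.88 to 0.97 among the 4 IgG genes, 0.80 to 0.93 between Igha and the IgG genes, and -0.90 and -0.98 between Igha and Ighm and Ighd. Ighe correlated with no other member above 0.54. Outside the members, the gene most like Ighm was Socs1 (r = 0.968). Bhlhe41 was first for Ighg3 (r = 0.950) and Ighg1 (r = 0.952) and second for Ighg2c (r = 0.958), after Fscn1 (r = 0.964). Fscn1 was also first for Ighg2b (r = 0.970). For Igha it was the integrin gene Itga4 (r = 0.973), which was second for Ighg2b (r = 0.958). For Ighe, with few counts, it was Moap1 (r = 0.909). All are over 12 libraries, which share the same 4 groups.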

How the data were processed

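PerC B2 and MemB of control and KI mice (12 libraries, 3 a group) were sequenced as 50-base pairs after RNA amplification with Ovation RNA-seq System V2. The authors deposited RSEM expected counts per gene. Their notes name FastQC 0.12.1, cutadapt 4.5, STAR 2.7.11a and RSEM 1.3.3 with mm39. The annotation and the strand setting are not given in the sources used here. Of non-zero values, 32.2% were not whole, and values were rounded. Totals were 29895068 to 39732124, and 3 counts were worth 0.0734 to 0.102 CPM. Amplification means that counts are not independent molecules.

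The fit of all 56941 genes used edgeR 4.0.16 (R 4.3.3), TMM, filterByExpr with a minimum count of 10 (15148 genes) and a robust quasi-likelihood test of 1 group term over 12 libraries, with Benjamini-Hochberg adjustment over all genes tested and a log2 fold change beyond 1. The biological coefficient of variation was 91.4%. The study's methods name DESeq2, which was an alternative here (1.42.0), as were limma-voom (limma 3.58.1), other scalings and filters, a replicate block and leaving out libraries. Standard errors came from the log2 fold change and its F. Shares used the deposited counts and an exact permutation test. Tests were checked on simulated data. Sequences and coordinates came from GENCODE M39 on GRCm39, the same assembly as mm39. Named genes were the 8 members, Jchain, Igkc, Cd79a, Cd79b, listed genes that were called, and genes most like each member (up to 3). Iglc1, Iglc2, Iglc3, H2ax and Xist fall outside this rule and were named after their values were seen. The same holds for the cell type markers Sdc1, Tnfrsf17, Mzb1, Derl3, Prdm1, Xbp1, Slpi, Fcer2a, Cr2 and Ccr7. Gpr34 is given as the check of the labels. Some genes that this rule names are not reported here. The members and gene lists were chosen with earlier results of these data known. Same-numbered libraries are not stated to share an animal. Python 3.11.15 and scipy 1.17.1 were used.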

Additional observations from a re-analysis of the deposited data

Results flagged for a closer look

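Ighm and Ighd stood out because their log2 fold changes between KI and control differed between the 2 sorted populations when tested. The sort used their proteins in opposite ways in B2 and MemB, so this test cannot separate KI from the gate. The difference of the log2 fold changes was -2.04 for Ighm (SE 0.24, edgeR adjusted p = 1.08e-05): all 3 KI MemB libraries had less Ighm than any control MemB library, and the log2 fold change was -2.46 in MemB and -0.42 in B2. For Ighd it was -1.23 (SE 0.25, edgeR adjusted p = 0.0463, lost with 9 of 12 libraries left out in turn, with the replicate block, upper-quartile normalisation, a non-robust fit and limma-voom), with a log2 fold change of -1.35 in MemB and -0.12 in B2.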

How the results depend on the processing

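The counts of members called were 3 between KI and control MemB, 0 in B2, and 6 and 7 between MemB and B2 in control and KI mice. With one library left out they were 2 to 3, 0, 4 to 6 and 5 to 7, and the difference between the KI effects had 1 to 3 members called against 2. That count was 1 with upper-quartile normalisation, 1 with a non-robust fit, 1 with the replicate block and 0 with limma-voom, which called 0 of all genes there. Without replicate 3 of every group, an alternative chosen after the data were seen, Igha was called in that comparison (2.38, edgeR adjusted p = 0.00686) and Ighd was not (-1.25, adjusted p = 0.357), Ighg1 between MemB and B2 in control mice was not called (3.43, adjusted p = 0.0503), and Ighm (-2.79), Ighd (-1.44) and Igha (2.78) stayed called between KI and control MemB.

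Some log2 fold changes of members that were not called turned sign. Between KI and control B2, values with 1 library, or replicate 3 of every group, left out ranged from -2.12 to 0.16 for Ighg1, -0.61 to 0.90 for Ighg2b, -0.014 to 0.25 for Ighg2c, -1.79 to 0.55 for Ighe and -0.023 to 0.39 for Igha, and Ighg2b was -0.067 with limma-voom and -0.013 with the replicate block. For the difference between the KI effects they ranged from -0.97 to 0.28 for Ighg3, -1.45 to 1.08 for Ighg1 (-0.32 with limma-voom) and -0.33 to 0.96 for Ighg2b, where the lowest with 1 library left out was -0.24. Ighe ranged from -0.60 to 8.34 between KI and control MemB and from -3.98 to 4.78 between MemB and B2 in control mice (-0.77 with the replicate block within genotype). The cause was not tested.

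Leave-one-out differences between KI and control in MemB were -44.8 to -37.3 percentage points for the Ighm share, 45.9 to 53.5 for Igha, -8.86 to -2.91 for the IgG sum and 36.8 to 46.3 for Igha of the switched genes, and -5.17 to -3.62 for Ighm in B2. Over all genes, calls between KI and control MemB were 43 in edgeR, 479 with DESeq2, 17 with limma-voom and 15 with the 6 MemB libraries alone. Same-numbered libraries correlated by -0.02 to 0.0359 in their deviations from the group means, no pair above 0.1, although Xist set replicate 3 apart in every group, and the replicate block moved the calls over all genes from 43 to 37 (log2 fold changes -2.49 for Ighm and 2.504 for Igha). With 6 libraries alone Ighe did not pass the filter for B2 or for MemB against B2, so it has no value there. Ighe had the fewest counts of the members, 0 to 95 a library.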
